A study of Homo sapiens with 24 samples.

Results

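The 33 genes described here make, regulate or remove cellular lipid, and they were taken from the count table as the rows whose Ensembl identifier maps to a listed symbol. They were 33 of the 60668 rows, and all 33 were among the 22158 genes with enough counts to be tested. They fall into a sterol group of 21 genes, a fatty acid group of 9 genes and an export group of 3 genes. RNA was sequenced from MCF-10A, an immortalised non-tumour human mammary epithelial cell line, and from MCF-10A carrying MYC-ER, the MYC transcription factor fused to an oestrogen receptor domain that binds hormone. Both lines were grown as 3D cultures on growth-factor-reduced Matrigel, a basement membrane gel. They received 1 µM 4-hydroxytamoxifen (4-OHT), the ligand that lets MYC-ER enter the nucleus, for 0, 8, 24 or 48 h, starting on day 3 for the longest exposure, and every culture was collected on day 5. The 8 groups of 3 replicates (24 libraries) are therefore MYC-ER at 0, 8, 24 and 48 h and parental cells at 0, 8, 24 and 48 h. The parental cells carried no MYC-ER and received the same 4-OHT, so they give the change over the same exposures without the fusion. The labels name no vehicle for the 0 h cultures, and do not say whether MYC-ER was 1 clone or a pool. They give cultures seeded in triplicate and do not say whether replicates came from separate passages, so p-values measure the spread between these cultures.

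Cells build cholesterol from acetyl-CoA through the mevalonate pathway, then squalene and lanosterol, and they build fatty acids by carboxylating acetyl-CoA, elongating the chain and inserting double bonds. When sterol in the endoplasmic reticulum is low, the membrane-bound factors SREBF1 and SREBF2 are escorted to the Golgi, cut, and released to activate most genes of both pathways, and INSIG1 holds them back when sterol is high. When sterol is high, the LXR nuclear receptors bind oxysterols and activate genes that move cholesterol out of the cell or block its uptake, among them ABCA1, ABCG1 and MYLIP. These routes feed membranes in growing epithelial cells.

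Library totals ran from 136860029 to 182438505 counts. The basal keratin KRT5 averaged between 6922 and 13284 CPM (counts scaled to the TMM-adjusted library total) over the 8 groups, and the epithelial factor TP63 between 80.6 and 162. Other epithelial markers differed far more between groups: KRT14 group means ran from 626 CPM (MYC-ER, 0 h) to 9725 (parental, 0 h), KRT17 from 323 to 3237, KRT18 from 97.0 to 503 and EPCAM from 1.93 (MYC-ER, 0 h) to 75.8 (MYC-ER, 24 h). Of the 5 basal markers 3 were lower and 1 higher in MYC-ER at 0 h, with a median log2 difference of -1.32. In that comparison 32.7% of all tested genes were lower and 31.6% higher. The summed basal list was 13852 to 14337 CPM in the MYC-ER 0 h libraries and 22645 to 28411 in the parental ones. The summed list of 4 general epithelial markers went from 348 to 368 CPM in MYC-ER at 0 h to 806 to 859 by 8 h, and was 414 to 581 in the parental libraries. The defining markers PTPRC and CD3E of immune cells, CDH5 of endothelium and ADIPOQ of fat cells were at or near 0. Of the other markers in these lists, LEP and VWF were also at or near 0. CD68 group means ran from 5.68 to 21.9 CPM, PECAM1 from 0.113 to 1.93, PLIN1 from 0.164 to 1.59 and LPL from 0 to 1.39. The 2 fat cell markers tested were called higher in MYC-ER than in parental cells at 0, 8, 24 and 48 h. Of all tested genes 31.6%, 23.1%, 23.5% and 27.3% were higher. The fibroblast list was mixed: COL1A2 was at or near 0, while COL1A1 averaged 215 CPM in MYC-ER at 0 h and then 55.5 by 8 h, and DCN 157 and 49.4. The summed fibroblast list ran from 369.6 to 377 CPM in the MYC-ER 0 h libraries and from 77.3 to 133 CPM over the libraries of the other 7 groups. The part of all these marker differences in the lipid gene results was not tested. Among the parental 0 h libraries, replicate 2 stood apart from replicates 1 and 3 (EBP, for example, was at 149.9 CPM against 220.2 and 224). The sterol counts that use the parental 0 h group, and some of the fatty acid counts, are given with and without replicate 2. Changes within the parental line also followed base composition: across 9777 well-measured genes, the log2 change against 0 h correlated with the GC content of the transcript at a Spearman rho of -0.62, -0.66 and -0.65 at 8, 24 and 48 h, against 0.02, -0.06 and 0.03 in MYC-ER cells. Genes share their libraries, so these are descriptions, and the sterol and fatty acid counts that use the parental line are also given after each library's trend on GC content was removed.

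The starts of the sterol genes are shown first, because a short motif, CCAAT, recurred in most of those searched. RefSeq (GRCh38.p14) gave a promoter for 28 of the 33 genes, and the 250 bases before each start were searched on both strands for CCAAT (bound by NF-Y), for the sterol regulatory element TCACNCCAC, for its looser form TCACNCNA, which the strict form also matches, and for the E-box CACGTG (bound by MYC and its partners). CCAAT was found in 15 of 18 sterol promoters, 3 of 8 fatty acid promoters and 1 of 2 export promoters, against 33% of all 27305 promoters of this length. The strict sterol element was found in SREBF2 alone of the 18 sterol promoters, against 0.875% of all promoters. The looser form was in 5 of 18 sterol promoters (MVK, FDPS, MSMO1, HSD17B7 and SREBF2), 1 of 8 fatty acid promoters (FADS2) and neither export promoter, against 7.50% of all. The E-box was in 2 of 18 sterol promoters (SC5D and INSIG1), in ELOVL5 and in ABCA1, against 6.49%. A match is only those letters in that window, and 20 of the 28 RefSeq starts lay within 500 bases of the GENCODE gene start.

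Sequences are printed for 5 genes whose values carry the results below, in lower case with the matches in capitals, read 5′ to 3′ towards the start (ATTGG is CCAAT on the other strand). HMGCS1 (chr5:43313413-43313662 on the minus strand) holds 2 CCAAT boxes, and INSIG1 (chr7:155297628-155297877 on the plus strand) holds 1 CCAAT box and 1 E-box. SREBF2 (chr22:41832855-41833104 on the plus strand) holds the strict sterol element, whose first base is 133 bases before the start, and 1 CCAAT box. SCD (chr10:100346983-100347232 on the plus strand) holds 2 CCAAT boxes, and FADS2 (chr11:61815953-61816202 on the plus strand) holds 1 loose sterol element and no CCAAT; this FADS2 start lies inside the longer GENCODE gene whose counts are used, and is one of the 8 starts further than 500 bases from the GENCODE one.
HMGCS1: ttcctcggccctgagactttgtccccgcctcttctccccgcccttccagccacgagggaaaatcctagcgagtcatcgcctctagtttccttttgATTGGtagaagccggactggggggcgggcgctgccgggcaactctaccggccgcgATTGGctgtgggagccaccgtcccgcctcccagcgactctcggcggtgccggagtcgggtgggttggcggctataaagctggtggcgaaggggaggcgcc
INSIG1: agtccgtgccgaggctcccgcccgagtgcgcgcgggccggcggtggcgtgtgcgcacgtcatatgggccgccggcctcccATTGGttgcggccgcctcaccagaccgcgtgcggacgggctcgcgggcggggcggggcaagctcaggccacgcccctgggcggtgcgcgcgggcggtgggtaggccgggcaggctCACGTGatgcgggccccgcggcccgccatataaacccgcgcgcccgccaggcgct
SREBF2: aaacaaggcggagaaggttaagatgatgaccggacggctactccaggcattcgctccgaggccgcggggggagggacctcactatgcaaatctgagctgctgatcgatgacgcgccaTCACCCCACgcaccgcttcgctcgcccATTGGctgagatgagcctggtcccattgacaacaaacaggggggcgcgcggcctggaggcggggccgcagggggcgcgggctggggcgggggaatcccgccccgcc
SCD: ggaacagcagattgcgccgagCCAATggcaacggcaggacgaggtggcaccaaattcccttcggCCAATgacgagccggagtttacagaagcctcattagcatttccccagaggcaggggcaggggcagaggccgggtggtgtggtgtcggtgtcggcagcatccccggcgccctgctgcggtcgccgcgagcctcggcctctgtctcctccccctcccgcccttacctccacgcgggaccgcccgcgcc
FADS2: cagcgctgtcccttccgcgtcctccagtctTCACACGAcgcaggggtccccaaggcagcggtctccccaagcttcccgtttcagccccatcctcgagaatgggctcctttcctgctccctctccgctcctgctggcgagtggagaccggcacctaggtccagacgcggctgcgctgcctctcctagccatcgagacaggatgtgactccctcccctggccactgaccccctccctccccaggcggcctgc

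**Figure D1:**
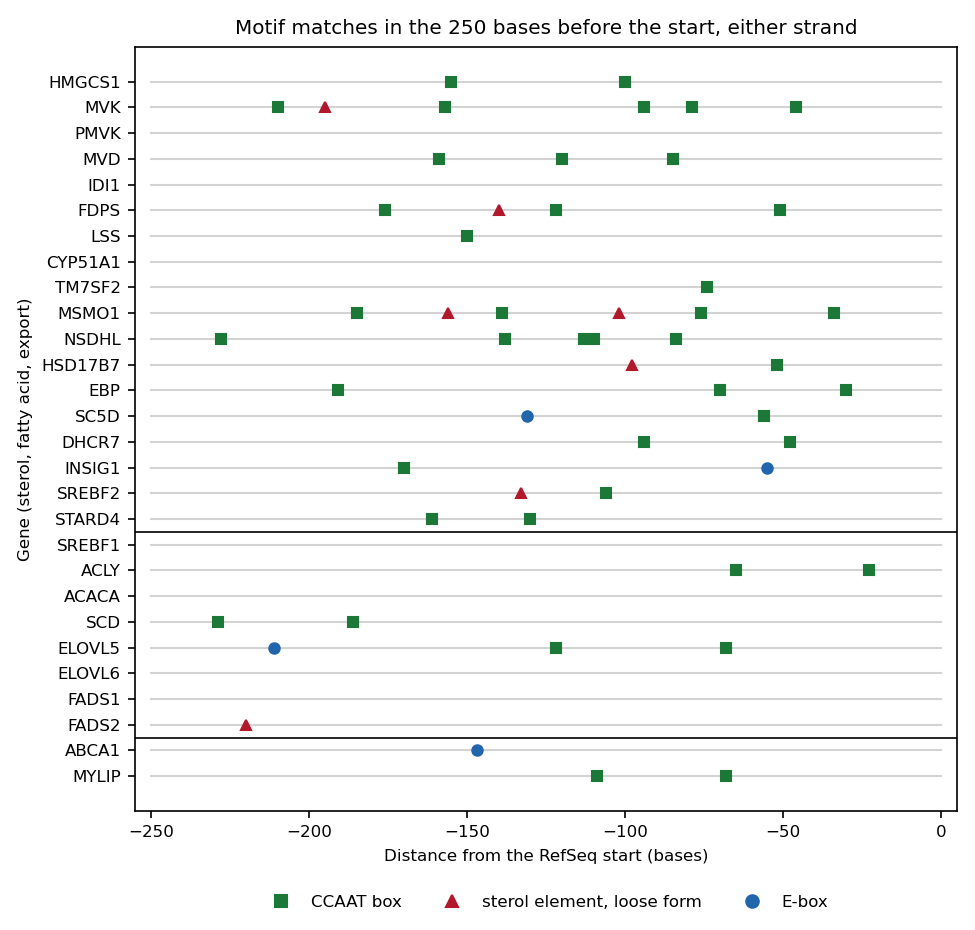
Position of each motif match (x axis, bases from the RefSeq start; y axis, the 28 genes with a promoter, sterol genes above the first line and export genes below the second). Squares are CCAAT, triangles the loose sterol element and circles the E-box; CCAAT matches sit in 15 of the 18 sterol rows.

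Before 4-OHT the sterol genes stood lower in the MYC-ER line. At 0 h 17 of the 21 sterol genes were lower in MYC-ER, 1 was higher and 3 did not pass the test, with a median log2 difference of -1.24 (edgeR quasi-likelihood test over all genes, Benjamini-Hochberg adjusted threshold 0.05). In the same comparison 32.7% of all tested genes were lower and 31.6% higher, and their median was 0. With the GC trend removed 19 sterol genes were lower and 2 higher, and without parental replicate 2 there were 17 lower and 3 higher. LSS was the gene higher in MYC-ER, and SC5D, SREBF2 and STARD4 were not called; SC5D and STARD4 were higher without replicate 2 (0.22 and 0.38) and their differences were -0.22 and -0.18 with the GC trend removed. Among the sterol genes ACAT2, MVD and FDPS differed most, at -2.74, -2.54 and -2.37. The fatty acid group had 7 genes lower, 1 higher and 1 not called, with a median of -0.86, and ELOVL5 was the higher one; without replicate 2 these counts were the same, and with the GC trend removed 6 were lower and 1 higher. The export group went the other way for 2 of its 3 genes: ABCA1 (log2 difference 3.92 ± 0.31 SE) and MYLIP (2.02 ± 0.12) were higher in MYC-ER, while ABCG1 was lower (-0.34 ± 0.08).

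After 4-OHT was added, most sterol and fatty acid genes rose in MYC-ER cells within 8 h, and the export genes fell. At 8 h against 0 h, 17 of 21 sterol genes rose and LSS, TM7SF2 and SREBF2 fell (3 genes; median log2 change 0.96), 6 of 9 fatty acid genes rose and 1 fell (0.62), and all 3 export genes fell (-2.05). Of all tested genes 32.2% rose and 35.4% fell, with a median of -0.10. At 24 h 18 sterol genes rose and 1 fell (0.97), 8 fatty acid genes rose and 1 fell (0.63), and 3 export genes fell (-1.94), against 30.4% of all genes rising and 31.2% falling. At 48 h 20 sterol genes rose and none of the 21 fell (1.20), 8 fatty acid genes rose and 1 fell (0.71), and 3 export genes fell (-1.13), against 23.4% and 20.7%. The 3 times share their 0 h libraries, so they are not independent of each other. Fewer expressing cells and less RNA per cell cannot be told apart in these bulk cultures.

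**Figure D2:**
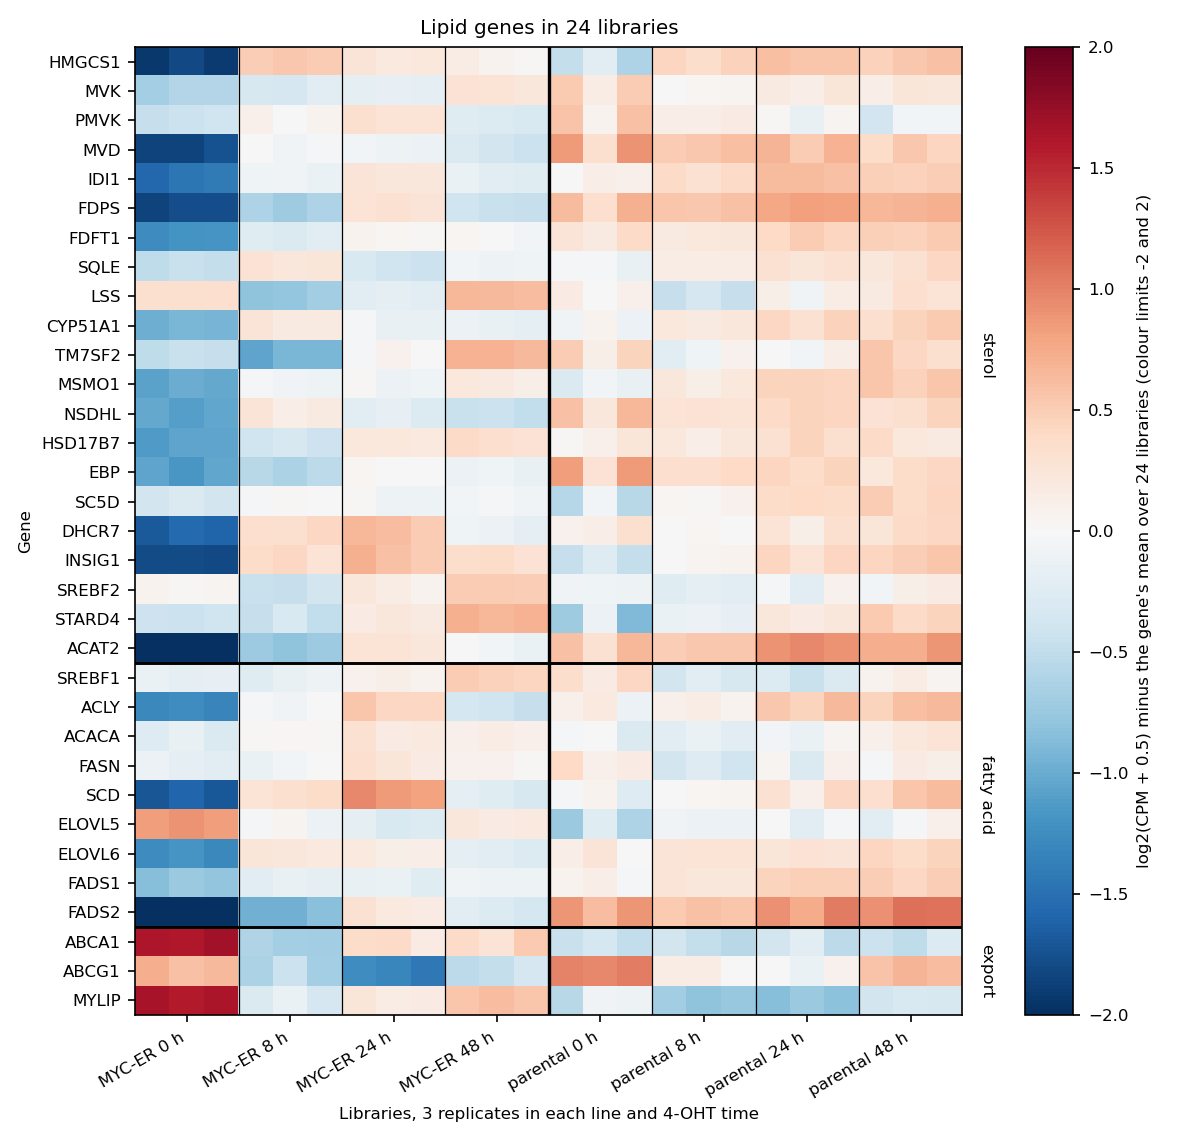
Each cell is the log2(CPM + 0.5) of 1 gene (y axis) in 1 library (x axis, 3 replicates a group) minus that gene's mean over the 24 libraries, from -2 (blue) to 2 (red). The MYC-ER 0 h columns are blue for most sterol and fatty acid genes and red for ABCA1, ABCG1, MYLIP and ELOVL5.

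The averaged level of each group of genes shows the same course library by library. The mean log2(CPM + 0.5) of the 21 sterol genes was 5.98 to 6.03 in the MYC-ER 0 h libraries, then 6.84 to 6.86, 7.08 to 7.15 and 7.06 to 7.13 at 8, 24 and 48 h. In the parental line it was 7.11 to 7.19, 7.17 to 7.22, 7.36 to 7.43 and 7.38 to 7.46 at the same times. The MYC-ER libraries thus reached the parental 0 h range only at 24 h and stayed under the parental libraries of the same time. For the fatty acid group the MYC-ER values were 7.24 to 7.30, 7.92 to 7.97, 8.20 to 8.31 and 7.96 to 8.03, and the parental values 8.06 to 8.19, 8.06 to 8.10, 8.15 to 8.34 and 8.32 to 8.47. MYC-ER at 24 h and parental at 24 h overlapped there. The export group ran 3.12 to 3.19, 1.29 to 1.45, 1.49 to 1.65 and 2.0 to 2.11 in MYC-ER, and 1.86 to 2.04, 1.43 to 1.55, 1.44 to 1.5 and 1.79 to 1.87 in parental cells. Of the 8 groups, MYC-ER at 0 h had the lowest mean level for 16 of 21 sterol genes and 6 of 9 fatty acid genes. The share of all tested genes with their lowest mean in this group was not computed, so these counts describe the listed genes only.

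The enzymes of the mevalonate part of the sterol pathway come first. HMGCS1 (ENSG00000112972.15, GRCh38 chr5:43289395-43313512) encodes the synthase that makes HMG-CoA. It was at 51.6, 56.1 and 52.2 CPM in MYC-ER at 0 h, 279.6, 288 and 281 by 8 h, 236, 225 and 229.6 by 24 h, and 219, 208 and 202 by 48 h. In parental cells it was at 141, 169.6 and 128 CPM at 0 h, 267, 252 and 272 by 8 h, 299, 290.4 and 290.4 by 24 h, and 272, 287 and 297 by 48 h. The MYC-ER libraries at 0 h were all below every other library, and those at 8 h were above the parental libraries at 8 h, although that line difference did not pass the test (log2 difference 0.10 ± 0.07). The log2 change in MYC-ER was 2.41 ± 0.07 (SE; adjusted p = 2.21e-17, edgeR), 2.11 ± 0.07 and 1.98 ± 0.07 at 8, 24 and 48 h, and 0.85 ± 0.07, 1.00 ± 0.07 and 0.96 ± 0.07 in parental cells. Without strand in the counting, which the sources used here do not give, reads of the antisense gene AC114947.2, which shares 15% of its exonic bases, could not be told from it.

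MVK and PMVK, the kinases that phosphorylate mevalonate, moved less. MVK rose by 0.33, 0.45 and 0.88 (log2) in MYC-ER, and PMVK rose by 0.50 and 0.72 at 8 and 24 h and stood at 0.16 (not called) at 48 h. MVD, the decarboxylase that follows them, rose by 1.78, 1.73 and 1.46, from 44.4 ± 2.03 CPM (SD, n = 3) at 0 h to 153 ± 3.34 at 8 h. IDI1, the isomerase that makes the allylic isoprenoid unit, rose by 1.39, 1.72 and 1.29. FDPS, which joins these units into farnesyl pyrophosphate, continued to climb after 8 h: its mean level was 150.2 ± 4.38 CPM at 0 h, 333 ± 12.1 by 8 h, 634 ± 10.2 by 24 h, and 387 ± 8.37 by 48 h, and the log2 difference of 24 h over 8 h was 0.93 ± 0.06. Parental FDPS libraries ranged from 663 to 926 CPM, above all MYC-ER libraries of the same time. FDPS and IDI1 share 18.6% and 14.8% of their exonic bases with antisense genes, so their counts carry the same limit as HMGCS1. All 6 genes of this stretch (HMGCS1, MVK, PMVK, MVD, IDI1 and FDPS) were below parental cells in the MYC-ER line at 0 h.

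Among the squalene and lanosterol steps, SQLE and LSS departed from the rest. FDFT1, which makes squalene, rose by 0.96, 1.26 and 1.21 in MYC-ER. SQLE, the epoxidase and a rate-limiting step, rose by 0.73 at 8 h, stood at 0.10 (adjusted p = 0.102, edgeR) at 24 h (called without parental 0 h replicate 3, at 0.11) and rose by 0.39 at 48 h. LSS, the cyclase that closes the lanosterol rings, fell and then rose. Its MYC-ER libraries were at 357, 357 and 361 CPM at 0 h, 164, 166 and 176 by 8 h, 244, 251 and 246 by 24 h, and 452, 448 and 439 by 48 h, and no 2 of these groups overlapped. The log2 change was -1.09 ± 0.06, -0.54 ± 0.06 and 0.32 ± 0.06. Parental LSS was also lower at 8 h, at 207, 227 and 208 CPM against 321, 287 and 306 at 0 h (-0.51 ± 0.06), and was at 308, 272 and 315 by 24 h, and 325, 363 and 347 by 48 h.

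The later sterol steps remove methyl groups and move double bonds. CYP51A1 (lanosterol demethylase), MSMO1, NSDHL and HSD17B7 (the C4 demethylation steps) all rose at the 3 times in MYC-ER, by 1.15, 0.84 and 0.79, by 0.96, 0.97 and 1.20, by 1.26, 0.84 and 0.60, and by 0.72, 1.32 and 1.45. In the GENCODE v29 annotation AC000120.2 shares 79.4% of the exonic bases of CYP51A1 on the same strand, so the CYP51A1 count is uncertain, and so is that of HSD17B7, which has a pseudogene copy. DHCR7, the last reductase, rose by 1.98, 2.22 and 1.49, from 81.0 ± 3.23 CPM to 319 ± 11.7 at 8 h and 377 ± 21.2 at 24 h, and its MYC-ER level at 24 h was above the parental one of 293 ± 21 (log2 difference 0.36 ± 0.06, adjusted p = 7.14e-05, edgeR). EBP, the sterol isomerase, rose by 0.52, 1.11 and 0.98, and SC5D, the desaturase, by 0.33, 0.28 and 0.29. TM7SF2, a sterol reductase at 4.35 to 15.8 CPM in MYC-ER, fell by 0.53 at 8 h and rose by 0.51 and 1.21 at 24 and 48 h.

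The regulators split. INSIG1 (ENSG00000186480.13, GRCh38 chr7:155297776-155310235) was at 25.2, 25.1 and 24.9 CPM in MYC-ER at 0 h, 114, 117 and 107 by 8 h, 144, 132 and 126 by 24 h, and 113, 113 and 107 by 48 h. In parental cells it was at 63.5, 73.3 and 62.9, then 87.4, 91.8 and 92.3, then 119, 106 and 119, then 118, 124 and 129 CPM. All MYC-ER libraries at 0 h were below, and all MYC-ER libraries at 8 h above, the parental libraries of the same time. Its log2 change was 2.17 ± 0.07, 2.42 ± 0.07 and 2.15 ± 0.07 in MYC-ER and 0.44 ± 0.06, 0.79 ± 0.06 and 0.89 ± 0.06 in parental cells.

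SREBF2 (ENSG00000198911.12, GRCh38 chr22:41833079-41907308), the SREBP gene most tied to sterol synthesis, moved against most of its group at 8 h. It was at 404, 392 and 399.9 CPM in MYC-ER at 0 h, 284, 279 and 299 by 8 h, 450.3, 427 and 407 by 24 h, and 550.3, 551 and 540.1 by 48 h. Parental SREBF2 was at 367, 362 and 358, then 327, 341 and 330.3, then 379, 333 and 410.3, then 369.9, 421 and 434 CPM. The MYC-ER values dipped below every 0 h library at 8 h and lay above all of them at 24 and 48 h. The log2 change in MYC-ER was -0.47 ± 0.06 (adjusted p = 1.29e-06, edgeR), 0.10 ± 0.06 (0.175) and 0.46 ± 0.06 (4.82e-06), so SREBF2 transcript fell while 17 of the other sterol genes rose. STARD4, which carries cholesterol between membranes, stood at -0.01 at 8 h (not called) and rose by 0.60 and 1.11 at 24 and 48 h.

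ACAT2 (ENSG00000120437.9, GRCh38 chr6:159760328-159779055), the cytosolic thiolase that feeds acetoacetyl-CoA to the pathway, had the largest MYC-ER change of the sterol group, at 24 h. It was at 17.3, 19.1 and 19.3 CPM in MYC-ER at 0 h, 51.8, 48.9 and 51.7 by 8 h, 104, 103 and 101 by 24 h, and 86.2, 82.4 and 78.7 by 48 h. Parental ACAT2 was at 129, 106 and 136, then 121, 125 and 125, then 159.8, 168 and 161, then 142, 143 and 158 CPM. Every MYC-ER library was below every parental library. The log2 change was 1.45 ± 0.07, 2.47 ± 0.07 and 2.15 ± 0.07 in MYC-ER. The exons of SOD2 and SOD2-OT1, on the opposite strand, share 26.5% and 33.9% of the exonic bases of ACAT2, so its count is uncertain without strand.

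**Figure D3:**
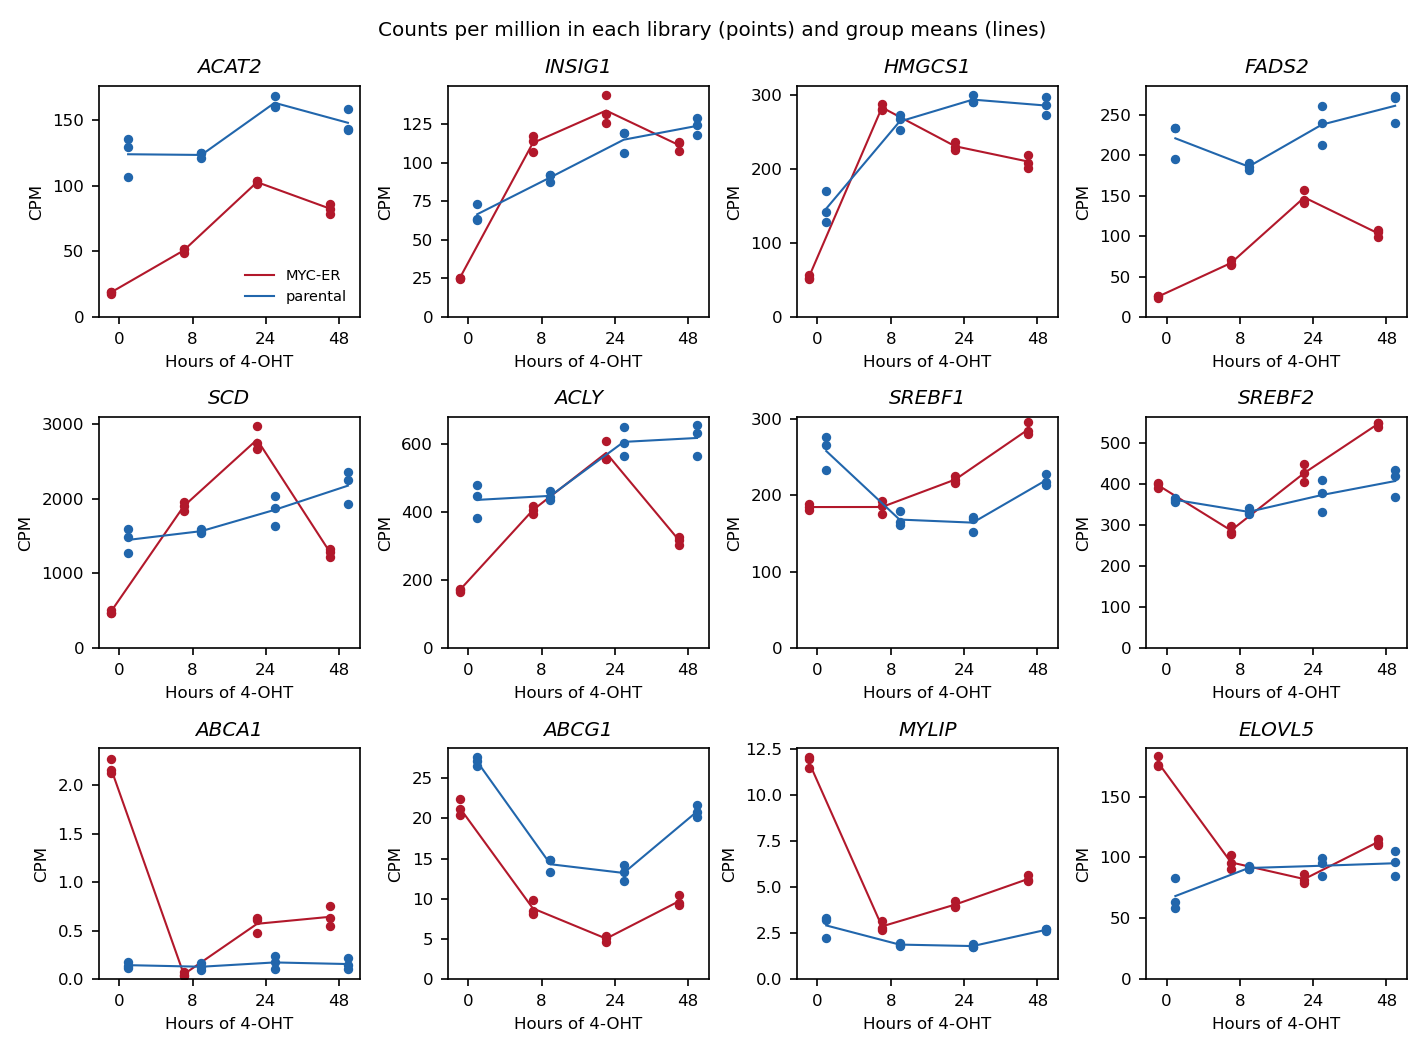
CPM (y axis, from 0) against hours of 4-OHT (x axis, evenly spaced) for 12 genes; points are libraries, lines join the means of 3, red is MYC-ER and blue parental. INSIG1, HMGCS1 and SCD start below and cross or meet the parental line by 8 h, ACAT2 and FADS2 stay below it, and ABCA1, MYLIP and ELOVL5 fall from a higher start.

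In the fatty acid group, FADS2, SCD and ACLY had the largest rises at 24 h. SCD (ENSG00000099194.6, GRCh38 chr10:100347124-100364834), the Δ9 desaturase that makes oleate, was at 468, 505 and 468 CPM in MYC-ER at 0 h, 1837, 1907 and 1958 by 8 h, 2969, 2744 and 2659 by 24 h, and 1325, 1284 and 1219 by 48 h. Parental SCD was at 1481, 1593 and 1271, then 1535, 1573 and 1589, then 1878, 1640.4 and 2034, then 1925, 2244 and 2355 CPM. The MYC-ER libraries went from below the parental libraries of the same time at 0 h to above them at 8 and 24 h and below them again at 48 h. The log2 change was 1.98 ± 0.09, 2.54 ± 0.09 and 1.41 ± 0.09.

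FADS2 (ENSG00000134824.14, GRCh38 chr11:61792980-61867354), the Δ6 desaturase of polyunsaturated fatty acids, was at 23.5, 26.4 and 25.5 CPM in MYC-ER at 0 h, 65.1, 64.9 and 70.9 by 8 h, 157, 145 and 141 by 24 h, and 108, 105 and 99.2 by 48 h. Parental FADS2 was at 234, 196 and 234, then 182, 190.4 and 186, then 240.2, 213 and 261, then 240.4, 273 and 270.4 CPM. Every MYC-ER library lay below every parental one. The log2 change was 1.41 ± 0.08, 2.56 ± 0.08 and 2.05 ± 0.08, and FADS2 at 24 h was the largest rise of the 33 genes in any MYC-ER comparison with 0 h.

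ACLY (ENSG00000131473.17, GRCh38 chr17:41866908-41930542), which makes cytosolic acetyl-CoA from citrate for both pathways, was at 169.8, 175 and 166 CPM in MYC-ER at 0 h, 406, 396 and 417 by 8 h, 609, 558 and 556 by 24 h, and 328, 317 and 303 by 48 h. Parental ACLY was at 447, 479 and 383, then 446, 461 and 437, then 604, 565 and 652, then 566, 633 and 656 CPM. The MYC-ER libraries lay below the parental ones at 0, 8 and 48 h and overlapped them at 24 h. The 8 h difference did not pass the test, although the libraries were apart (log2 difference -0.14 ± 0.07). The log2 change was 1.25 ± 0.07, 1.75 ± 0.07 and 0.89 ± 0.07 in MYC-ER. ELOVL6, which elongates saturated chains, rose by 1.47, 1.4 and 1.03, and FADS1, the Δ5 desaturase, by 0.62, 0.63 and 0.71.

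ACACA and FASN, which carry out palmitate synthesis itself, changed by less than 0.5 on the log2 scale. ACACA, which makes malonyl-CoA, rose by 0.26, 0.46 and 0.35 in MYC-ER. FASN, which builds palmitate, averaged 1292 ± 40.9 CPM at 0 h, 1397 ± 70.4 by 8 h, 1732 ± 110.2 by 24 h, and 1520.2 ± 33.7 by 48 h; its log2 change was 0.11 ± 0.09 (not called), 0.42 ± 0.09 and 0.23 ± 0.09. The 48 h call of FASN (adjusted p = 0.035, edgeR) was lost without MYC-ER 0 h replicate 2 or 3 or without any 1 of the MYC-ER 48 h replicates, at adjusted p between 0.0556 and 0.105. SREBF1 (ENSG00000072310.17, GRCh38 chr17:17810399-17837002), the SREBP gene most tied to fatty acid synthesis, was at 189, 180.4 and 185 CPM in MYC-ER at 0 h, 176, 186 and 193 by 8 h, 220.4, 225 and 217 by 24 h, and 296, 284 and 281 by 48 h. Parental SREBF1 was at 266, 233 and 276, then 161, 179 and 165, then 171, 152 and 169.5, then 217, 229 and 214 CPM. In MYC-ER it did not change detectably at 8 h (0.00 ± 0.06) and rose by 0.26 and 0.63 at 24 and 48 h, while in parental cells it fell by 0.62 and 0.65 at 8 and 24 h and by 0.23 at 48 h. The 48 h parental value turned to 0.12 with the GC trend removed, and without parental 0 h replicate 3 it was -0.15 and not called.

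ELOVL5, which elongates polyunsaturated chains, was the exception of this group. It was at 175, 184 and 176 CPM in MYC-ER at 0 h, 95.2, 102 and 90.2 by 8 h, 86.2, 79.0 and 81.3 by 24 h, and 115, 110.4 and 112 by 48 h. Parental ELOVL5 was at 58.4, 82.7 and 63.5, then 92.9, 90.3 and 90.5, then 99.1, 84.9 and 95.4, then 84.6, 96.0 and 105 CPM. The log2 change was -0.89 ± 0.09, -1.12 ± 0.09 and -0.66 ± 0.09 in MYC-ER and 0.42 ± 0.09, 0.45 ± 0.09 and 0.48 ± 0.09 in parental cells. ELOVL5 passed the test at every time in both lines, downward in MYC-ER and upward in parental cells, also with the GC trend removed.

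The export group fell in MYC-ER at all 3 times. ABCA1 (ENSG00000165029.16, GRCh38 chr9:104781002-104928237), which loads cholesterol onto apolipoproteins, was at 2.16, 2.13 and 2.27 CPM in MYC-ER at 0 h (372 to 389 counts), 0.0723, 0.0426 and 0.0334 at 8 h (5 to 10 counts), 0.611, 0.625 and 0.474 by 24 h, and 0.629, 0.548 and 0.751 by 48 h. Parental ABCA1 was between 0.0926 and 0.241 CPM in all 12 libraries. The transcript was low throughout, and the MYC-ER 8 h libraries lay below the parental ones. The log2 change in MYC-ER was -5.45 ± 0.35, -1.94 ± 0.28 and -1.76 ± 0.28, and no parental change was called.

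ABCG1 (ENSG00000160179.18, GRCh38 chr21:42199689-42297244), which exports cholesterol to high-density lipoprotein, was at 22.4, 20.4 and 21.2 CPM in MYC-ER at 0 h, 8.44, 9.83 and 8.12 by 8 h, 5.36, 5.11 and 4.64 by 24 h, and 9.18, 9.49 and 10.5 by 48 h. Parental ABCG1 was at 27.1, 26.5 and 27.6, then 14.8, 14.8 and 13.3, then 13.3, 12.2 and 14.1, then 20.2, 21.6 and 20.8 CPM. It fell in both lines, by 1.28, 2.08 and 1.13 in MYC-ER and by 0.92, 1.03 and 0.38 in parental cells. MYLIP (ENSG00000007944.15, GRCh38 chr6:16129125-16148248), the ubiquitin ligase that degrades lipoprotein receptors, was at 12.1, 11.5 and 12 CPM in MYC-ER at 0 h, 2.78, 3.16 and 2.66 by 8 h, 4.26, 3.95 and 3.97 by 24 h, and 5.37, 5.64 and 5.36 by 48 h. Parental MYLIP was at 2.22, 3.30 and 3.24, then 1.97, 1.79 and 1.88, then 1.72, 1.90 and 1.76, then 2.61, 2.72 and 2.71 CPM. MYC-ER at 0 h was above every other library, and the log2 change was -2.05 ± 0.12, -1.54 ± 0.11 and -1.12 ± 0.11 in MYC-ER and -0.64 ± 0.11, -0.70 ± 0.11 and -0.12 ± 0.11 (not called; -0.29 and called without parental 0 h replicate 1) in parental cells.

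After 8 h the groups of genes kept moving in MYC-ER cells, though not all one way. From 8 to 24 h 12 of 21 sterol genes rose and 4 fell (HMGCS1, SQLE, CYP51A1 and NSDHL), with a median of 0.25, and 6 of 9 fatty acid genes rose and none of the 9 fell. ABCA1 and MYLIP rose (3.52 ± 0.34 and 0.50 ± 0.11) and ABCG1 fell (-0.80 ± 0.08). Of all genes 28.4% rose and 27.1% fell over this interval. From 24 to 48 h 7 sterol genes rose and 8 fell, with a median of -0.05, and 2 fatty acid genes rose and 4 fell, against 28.2% and 25.5% of all genes. The largest falls of this interval were in SCD (-1.13 ± 0.09) and ACLY (-0.86 ± 0.07), and the largest sterol rises were in LSS (0.85 ± 0.06) and TM7SF2 (0.70 ± 0.10).

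Parental cells under 4-OHT moved less and in both directions. At 8 h 8 sterol genes rose and 6 fell (median -0.01), and 3 fatty acid genes rose and 3 fell, against 15.0% of all genes rising and 16.0% falling. With the GC trend removed 5 sterol genes rose and 4 fell and 2 fatty acid genes rose and 2 fell, and without parental 0 h replicate 2 the sterol counts were 8 and 10. At 24 h 12 sterol genes rose and 4 fell (0.23) and 5 fatty acid genes rose and 2 fell, against 21.2% and 21.7%; with the GC trend removed the sterol counts were 15 and 0 and the fatty acid counts 5 and 2, and without replicate 2 the sterol counts were 12 and 6. At 48 h 13 sterol genes rose and 4 fell (0.18) and 7 fatty acid genes rose and 1 fell, against 20.4% and 20.1%; with the GC trend removed the sterol counts were 15 and 2 and the fatty acid counts 8 and 0, and without replicate 2 they were 10 and 5, and 6 and 1. In a fit of the 2 parental groups alone fewer genes passed: 4, 9 and 9 of the 21 sterol genes and 2, 4 and 4 of the 9 fatty acid genes at 8, 24 and 48 h. The shares of all genes above are from the main fit of 24 libraries. Shares for this smaller fit and the other alternatives are not given here, so a general loss of calls cannot be told apart. HMGCS1, INSIG1 and STARD4 showed the largest parental sterol rises at 48 h, with log2 changes of 0.96, 0.89 and 0.99. These values are from before the GC trend was removed. The GC content of these transcripts was 40.2%, 46.0% and 34.2%, against a sterol median of 50.2%, and parental changes at 48 h correlated negatively with GC content (rho -0.65). Parental STARD4 at 0 h also ranged from 32.2 to 55.2 CPM.

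**Figure D4:**
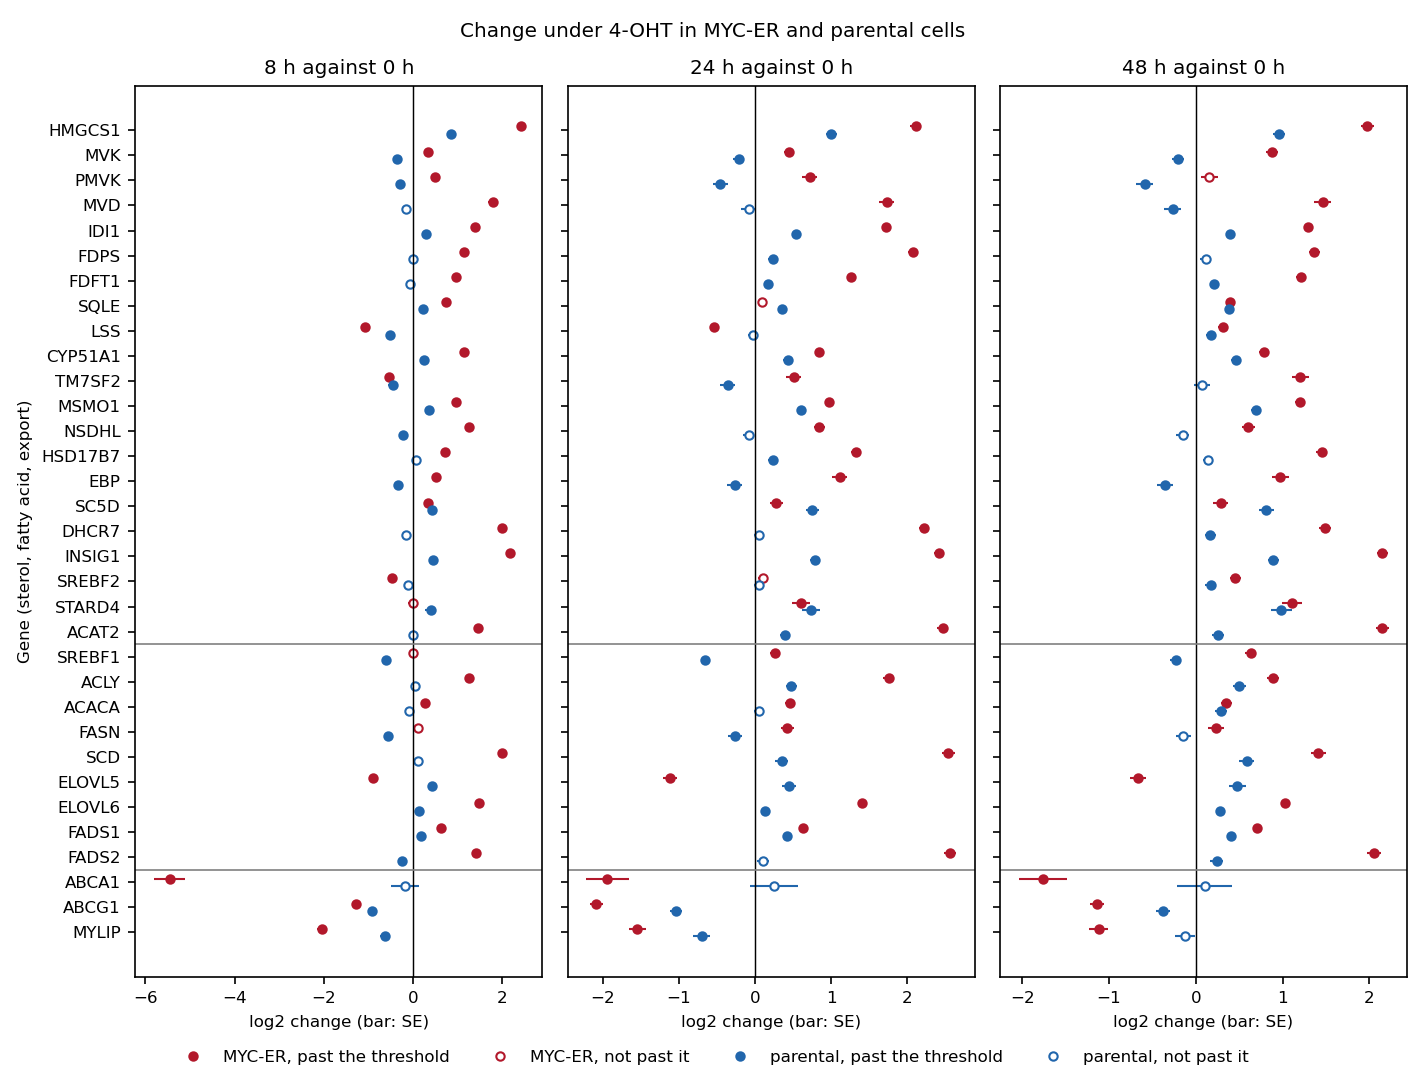
log2 change against 0 h (x axis; bar, SE) of each gene (y axis) at 8, 24 and 48 h in MYC-ER (red) and parental cells (blue); filled points passed the adjusted threshold of 0.05. Most sterol and fatty acid genes lie further right in MYC-ER than in parental cells. The filled MYC-ER points left of 0 are LSS at 8 and 24 h, SREBF2 and TM7SF2 at 8 h, ELOVL5 and the export genes.

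The difference between the 2 responses was tested itself, by subtracting the parental change from that of MYC-ER. At 8 h the difference was above 0 for 16 sterol genes and below 0 for LSS, SREBF2 and STARD4 (median 0.85; STARD4 lost its call without any 1 of 20 libraries), above 0 for 8 fatty acid genes and below 0 for ELOVL5 (0.69), and below 0 for all 3 export genes, against 27.3% of all genes above and 27.8% below. At 24 h the sterol counts were 16 and 3 (SQLE, LSS and SC5D below 0; median 1.09) and the fatty acid counts 8 and 1 (0.91), against 27.7% and 26.8%. At 48 h they were 17 and 1 (SC5D; 1.00) and 7 and 1 (0.39), against 23.6% and 21.4%, and the export genes were below 0 at both times. With the GC trend removed the sterol counts were 17 and 3, 16 and 3, and 17 and 1, and the fatty acid counts 8 and 1, 8 and 1, and 6 and 1. Without parental 0 h replicate 2 they were 16 and 4, 16 and 4, and 17 and 1 for sterol genes, with no change in the fatty acid counts. FADS2 differed by 1.66 ± 0.11, 2.45 ± 0.11 and 1.81 ± 0.11, SCD by 1.87 ± 0.12, 2.19 ± 0.12 and 0.82 ± 0.12, ACAT2 by 1.46 ± 0.10, 2.07 ± 0.10 and 1.89 ± 0.10, and INSIG1 by 1.73 ± 0.09, 1.63 ± 0.09 and 1.26 ± 0.09.

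Once both lines had 4-OHT, the gap between them narrowed for the sterol genes and changed sign for some fatty acid genes. At 8 h 13 sterol genes were lower in MYC-ER and 2 higher (median log2 difference -0.28), and 2 fatty acid genes were lower and 3 higher (0.07), against 25.5% of all genes lower and 23.1% higher. At 24 h 15 sterol genes were lower and 4 higher (-0.38), and 2 fatty acid genes lower and 4 higher (-0.08), against 25.8% and 23.5%. At 48 h 14 sterol genes were lower and 3 higher (-0.44), and 5 fatty acid genes lower and 2 higher (-0.56), against 29.4% and 27.3%. With the GC trend removed the counts of lower and higher genes at 8, 24 and 48 h were 13 and 2, 14 and 4, and 15 and 3 for sterol genes, and 2 and 4, 3 and 4, and 5 and 2 for fatty acid genes. INSIG1 and DHCR7 were the sterol genes above parental at 8 h, and they were joined by PMVK and SREBF2 at 24 h. The PMVK call was lost without parental 24 h replicate 2, and the SREBF2 call without MYC-ER 24 h replicate 1 or parental 24 h replicate 2. The STARD4 call at 8 h was lost in most of the fits that left out 1 library. Leaving out some single libraries also lost the calls of HSD17B7 and FASN at 24 h, and INSIG1, TM7SF2 and ELOVL5 at 48 h. It added calls for SQLE and SREBF1 at 8 h, ELOVL5 and ELOVL6 at 24 h, and STARD4 at 48 h. ABCA1 was below parental at 8 h (-1.36 ± 0.36) and above it at 24 h (1.73 ± 0.30) and 48 h (2.05 ± 0.30), MYLIP was above parental at all 3 times, and ABCG1 below at all 3.

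**Figure D5:**
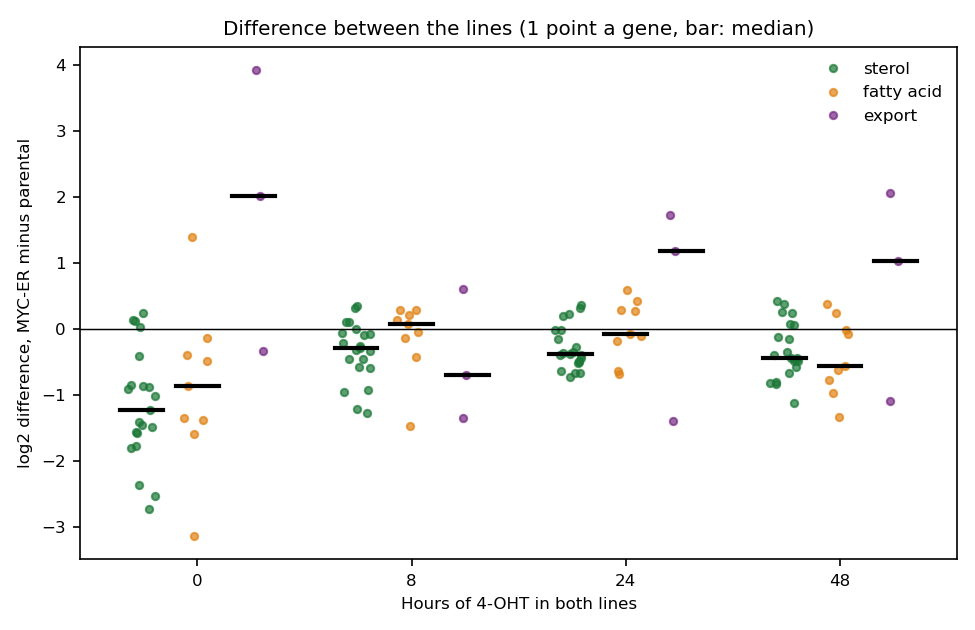
log2 difference of MYC-ER minus parental (y axis) for each gene (points) at 0, 8, 24 and 48 h of 4-OHT (x axis); black bars are medians. The sterol median goes from -1.24 at 0 h to -0.28, -0.38 and -0.44, and the fatty acid median from -0.86 to 0.07, -0.08 and -0.56.

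Related genes outside the 33 moved in both directions. In the same comparisons 32.2%, 30.4% and 23.4% of all tested genes rose and 35.4%, 31.2% and 20.7% fell at 8, 24 and 48 h. Of 13 further sterol genes (sensor, transport and storage genes), 6, 5 and 4 rose and 3, 5 and 3 fell in MYC-ER at 8, 24 and 48 h. Among them LBR, whose protein also has sterol reductase activity, rose by 1.12, 1.38 and 0.74 and TMEM97, which regulates intracellular cholesterol, rose by 1.16 at 24 h, while SOAT1, which esterifies cholesterol for storage, fell by 1.08, 0.96 and 0.89. Of 17 further fatty acid genes 8, 8 and 9 rose and 9, 7 and 6 fell. HACD3, a dehydratase of the elongation cycle, rose by 1.69 and 1.80 at 8 and 24 h, ACSL4, an acyl-CoA synthetase for arachidonate, by 1.43 and 1.26 at 8 and 24 h and by 1.08 at 48 h, and ACSL1, another acyl-CoA synthetase, fell by 1.75 and 2.12 at 8 and 24 h. Of 7 tested genes in a list of LXR receptors, partners and targets, 2, 1 and 1 rose in MYC-ER and 4, 5 and 3 fell. The one that rose at 24 and 48 h was near 0 CPM throughout. In parental cells 0 of the 7 rose and 3, 4 and 2 fell. Of all tested genes 15.0%, 21.2% and 20.4% rose in parental cells and 16.0%, 21.7% and 20.1% fell. SMPDL3A, an LXR target, fell by 1.27, 1.08 and 0.89 in MYC-ER, where the lowest value of the list at 24 h was -2.04.

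Per kilobase of the longest transcript, FASN was the highest of the 33 in MYC-ER at 0 h (151 CPM per kb), followed by SQLE (96.9) and SCD (89.6), and ABCA1 was the lowest (0.208). At 24 h SCD was the highest (520.5 CPM per kb), followed by FDPS (314) and FASN (202). In parental cells at 0 h the order was FDPS (385), SCD (270.1) and FASN (199).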

How the data were processed

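RNA of 24 cultures was sequenced (poly(A)-selected, stranded kit, paired reads, per the labels). The deposited table holds whole-number gene counts that the authors did not normalise. Per the submitters' processing notes the tools were Trimmomatic 0.39, STAR and StringTie 2.1.3b with GRCh38; annotation release, strand setting and the handling of shared reads are not given in the sources used here, and if StringTie made the counts they are estimates. Genes were filtered with filterByExpr, scaled by TMM and tested by quasi-likelihood F tests in edgeR 4.0.16 under R 4.3.3, fitting the 8 group means to the 24 libraries together, with Benjamini-Hochberg adjustment within each contrast. The common biological coefficient of variation was 0.151. No 2 libraries of a group agreed within sampling noise. Gene positions, overlaps, GC content and length come from GENCODE v29 (GRCh38), promoters from RefSeq (GRCh38.p14). Alternatives were other scalings and filters, DESeq2 1.42.0, fits of the compared groups alone, a replicate block, GC and length trends removed, and each library left out. Shares of all tested genes are from the main fit and are not given for the alternatives. The test was also run on simulated counts with few genes changed, in the MYC-ER 8 h group only, and no GC trend. That run does not cover changes as widespread as those called here. Members and lists were chosen with earlier results of these data known. Values are given in full for the 3 genes of each synthesis group with the largest MYC-ER change, SREBF1, SREBF2, INSIG1 and the export genes, and also for LSS and ELOVL5, chosen after their values were seen; outside the 33, genes are named from the 2 largest rises and falls of a list.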

Additional observations from a re-analysis of the deposited data

Results flagged for a closer look

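The response to 4-OHT differed between MYC-ER and parental cells in the test of the difference itself (edgeR, adjusted threshold 0.05) for 19, 19 and 18 of the 21 sterol genes at 8, 24 and 48 h, for 9, 9 and 8 of the 9 fatty acid genes and for 3, 3 and 3 of the 3 export genes. Of all tested genes 27.3%, 27.7% and 23.6% had a difference above 0 and 27.8%, 26.8% and 21.4% one below 0. Log2 differences (MYC-ER change minus parental change) at 8, 24 and 48 h were 1.56, 1.11 and 1.01 for HMGCS1, 1.73, 1.63 and 1.26 for INSIG1 and 1.46, 2.07 and 1.89 for ACAT2. SREBF2 differed by -0.35 at 8 h and 0.28 at 48 h, that is, below and then above the parental change. MVK at 8 h differed by 0.70 and NSDHL at 8 h by 1.48, and EBP by 0.85 at 8 h and 1.33 at 48 h. All 3 were called higher in MYC-ER and lower in parental cells at 8 h. The parental NSDHL call (-0.22) was lost without parental 0 h replicate 1 or 3 or without any 1 of the parental 8 h replicates, and stood at -0.12 without parental 0 h replicate 3. The parental EBP call at 8 h (-0.33) was lost without parental 0 h replicate 1 (-0.25) or 3 (-0.22), and the one at 48 h (-0.35) without parental 0 h replicate 3 (-0.22; adjusted p = 0.0755, edgeR).

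In the fatty acid group the differences were 0.62, 0.91 and 0.86 for SREBF1, 1.21, 1.28 and 0.39 for ACLY, 1.87, 2.19 and 0.82 for SCD, and 1.66, 2.45 and 1.81 for FADS2. ELOVL5 differed by -1.31, -1.57 and -1.14. In the export group they were -5.28, -2.19 and -1.87 for ABCA1, -0.36, -1.05 and -0.76 for ABCG1, and -1.41, -0.84 and -0.99 for MYLIP. The parental 0 h libraries enter every one of these differences. With the GC trend of each library removed and all libraries kept, calls in opposite directions in the 2 lines were made for ELOVL5 at 8, 24 and 48 h, EBP at 8 and 48 h, MVK and NSDHL at 8 h, and SREBF1 at 24 h.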

How the results depend on the processing

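A reversal was counted only where a gene was called before or after recomputing, so sign changes between uncalled values were not counted. Within MYC-ER cells none of 5770 recomputed comparisons was such a reversal. Of these, 5674 kept their side of the threshold, 16 lost a call and 80 gained one. Changes within parental cells were less stable: of 3462, 3207 kept their side of the threshold without a counted reversal. A call was lost in 179 and gained in 38, and 38 were counted as reversed. When only the groups compared were fitted, the sterol genes called in parental cells were 4, 9 and 9 at 8, 24 and 48 h, and the fatty acid genes 2, 4 and 4, with fewer samples to estimate the spread. The share of all genes called in those fits is not given here. At 8 h the parental sterol count was also 9 with the GC trend removed, 8 with GC and length trends removed, and 9 with the replicate block and the GC trend removed. Leaving out 1 library at a time gave 10 to 18, 14 to 18 and 13 to 17 parental sterol calls and 20 to 20, 19 to 20 and 20 to 20 in MYC-ER. The replicate numbers gave no sign of pairing the samples, though 3 replicates a group cannot exclude it. The median correlation of same-numbered libraries was 0.02 in MYC-ER (-0.32 to 0.16) and -0.01 in parental cells (-0.31 to 0.23), 18 pairs each. The replicate block alone gave 14 parental sterol calls at 8 h and moved no count by over 1.5 times.

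Reversed log2 values follow, and the cause was not tested. In parental cells against 0 h with the GC trend removed, ELOVL6 was -0.039 at 8 h and -0.11 at 24 h, FASN 0.17 at 24 h and 0.25 at 48 h, FDPS 0.14 at 8 h, HSD17B7 -0.0013 at 24 h, LSS 0.23 at 24 h, MVD 0.33 at 24 h and 0.11 at 48 h, MVK 0.054 at 24 h and 0.060 at 48 h, SREBF1 0.12 at 48 h and TM7SF2 0.060 at 24 h. With the replicate block added, ELOVL6 was -0.038 and -0.11, FASN 0.17 and 0.26, FDPS 0.14, LSS 0.24, MVD 0.33 and 0.12, MVK 0.055 and 0.060, SREBF1 0.12 and TM7SF2 0.059. With GC and length trends removed, ACACA was -0.27 at 24 h and -0.022 at 48 h, ELOVL6 -0.14, -0.34 and -0.18 at 8, 24 and 48 h, FDPS 0.17 at 8 h, HSD17B7 -0.025 at 24 h, MVD 0.15, 0.38 and 0.17, PMVK 0.011 at 8 h and 0.0045 at 24 h, and TM7SF2 0.13 at 24 h. Between the lines at 0 h, SC5D was -0.22 with GC, -0.13 with GC and length and -0.22 with the block and GC removed, and STARD4 -0.18, -0.32 and -0.18. In the difference of responses, SC5D at 8 h was 0.16 with the GC trend removed and STARD4 at 24 h 0.36 with GC and length removed. ABCA1 at 8 h rests on 5 to 10 counts a library, which limits the size of its change.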
